A study of Mus musculus with 12 samples.

Results

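The steroid and gonadotropin receptors described here are the estrogen receptors Esr1 and Esr2, the progesterone receptor Pgr, the glucocorticoid receptor Nr3c1, the mineralocorticoid receptor Nr3c2, the orphan nuclear receptor Nr5a2, the gonadotropin receptors Fshr and Lhcgr, and the estrogen-responsive coregulator Greb1. The 9 genes were listed by symbol, and no measured value entered the rule, but the list was chosen with earlier results of these data known. Of these, 8 had a transcript cluster of their own, the array's unit for 1 locus, among 30701 named genes, and none had a second. Lhcgr is not analysed here. Expression was read on the Affymetrix Mouse Transcriptome Array 1.0 in fetal gonads taken at 14.5 days post coitum (dpc) and separated from the mesonephros, with the gonad pair of 1 embryo on each array. The XY control and XX control groups were Sf1-Cre+/Tg; Rosa26+/+, and the XY FOXL2+ group was Sf1-Cre+/Tg; Rosa26-CAG-LSL-Foxl2+/f, with 4 arrays in each group. All embryos thus carried the Cre driver, on a mixed 129Sv and C57Bl/6J background. The Foxl2 transgene has a CAG promoter, and a stop cassette keeps it silent except where Sf1-cre has acted, in somatic cells of the gonad and in other Sf1-expressing lineages such as the adrenal cortex. The comparisons asked how an XY gonad given this granulosa cell transcription factor differs from a testis and from an ovary of the same age.

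Steroid receptors are transcription factors that bind a hormone made elsewhere in the body or in a neighbouring cell and then act on genes with a matching response element. FSHR and LHCGR sit in the cell membrane, bind the pituitary gonadotropins and signal through cAMP, FSHR in Sertoli and granulosa cells and LHCGR in Leydig and theca cells. In the adult ovary ESR2 is the main estrogen receptor of granulosa cells, ESR1 is found in theca, stroma and surface epithelium, and PGR and NR5A2 act in granulosa cells around ovulation.

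Start-site sequence is shown for Esr2 and Fshr because these receptors separated the 4 XY FOXL2+ gonads from each other more than the other members did. Both are written 5′ to 3′ on the gene's strand and cover the 250 bases before a RefSeq start on GRCm38.p6. Capitals mark the E-box letters CACGTG, which is its own reverse complement and a binding sequence of USF factors. The Esr2 stretch is chr12:76177260-76177509 and the Fshr stretch is chr17:89200676-89200925, each on the minus strand.
Esr2: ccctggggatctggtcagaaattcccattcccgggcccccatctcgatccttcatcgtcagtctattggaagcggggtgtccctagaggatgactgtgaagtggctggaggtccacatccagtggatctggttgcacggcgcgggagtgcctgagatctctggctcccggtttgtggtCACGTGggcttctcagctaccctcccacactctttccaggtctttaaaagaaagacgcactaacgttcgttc
Fshr: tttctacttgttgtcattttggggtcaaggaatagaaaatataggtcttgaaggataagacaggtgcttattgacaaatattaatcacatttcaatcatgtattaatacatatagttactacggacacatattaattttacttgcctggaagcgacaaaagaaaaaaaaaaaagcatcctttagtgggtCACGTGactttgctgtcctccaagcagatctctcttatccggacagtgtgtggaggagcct
The E-box began 72 bases before the start in Esr2 and 61 bases before it in Fshr. It lay in 2 of the 11 windows that RefSeq gave for 8 of the 9 members (all but Nr3c1), and in 6.02% of the 32851 windows of that length in the table. The other 4 sequences were searched on both strands in the same way. The forkhead letters GTAAACA occurred in 0 of the 11 windows and in 3.17% of all windows, and the NR5A letters CAAGGTCA occurred in 0 of the 11 and in 1.33% of all. The core of an estrogen response element, AGGTCA, which the NR5A letters contain, lay in 3 of the 11 windows, 64 bases before a start of Nr5a2, 88 before that of Greb1 and 122 before that of Lhcgr, against 14.0% of all windows. The steroid receptor core AGAACA also lay in 3 of the 11, against 16.1% of all, at 29 and 188 bases before 2 starts of Nr5a2 and at 113 before that of Lhcgr. These are matches of letters and no measure of binding.

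Values are the deposited log2 signals, so a difference of 1 is a doubling. Each comparison was tested with limma, with p-values adjusted by the Benjamini-Hochberg method over all 65956 clusters and a threshold of 0.05. Errors beside means are SDs over 4 arrays (n = 4), and intervals of differences are 95% intervals. An exact two-sided permutation test of 4 against 4 arrays cannot go below 0.0286. Foxl2 itself read 5.07, 5.55, 5.44 and 5.33 in XY control, 7.67, 8.62, 7.18 and 6.72 in XY FOXL2+, and 8.08, 7.30, 7.14 and 7.39 in XX control. It was thus higher in all 4 XY FOXL2+ gonads than in any XY control (log2 change 2.20, adjusted p = 0.00122). The XY FOXL2+ arrays were unequal in a wider sense too: replicate 1 stood apart on the second principal component, and replicates 3 and 4 stood apart together on the third. The mean of the 11 Sertoli cell markers was 8.28, 7.53, 9.14 and 9.03 in XY FOXL2+ replicates 1 to 4, between 10.42 and 10.64 in XY control and between 6.89 and 6.97 in XX control. Genes that should be silent read between 5.99 and 7.07 (Y-linked genes in XX gonads, Xist in XY gonads), so a receptor or other gene at or under such a level was not shown to be above background, and its fold change may be understated. In whole gonads, fewer cells of a type and less RNA per cell cannot be told apart.

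Against XY control, 3 of the 8 measured members were higher in XY FOXL2+ gonads (Nr3c1, Pgr and Nr3c2), 0 were lower and 5 did not pass. With no adjustment, 5 of the 8 had a p under 0.05, 1 of them lower, and 13140 of all 65956 clusters had such a p. After adjustment, 2.46% of all clusters were higher and 4.67% lower in this comparison. The groups did not overlap for the same 3 members, against 12.2% of all clusters. In XX against XY control, 3 members were higher (Nr3c1, Pgr and Nr3c2), 2 were lower (Fshr and Nr5a2) and 3 did not pass, where 7.17% of all clusters were higher and 10.2% lower. Here the groups did not overlap for 6 members, against 25.4% of all clusters. In XY FOXL2+ against XX control, 2 members were higher (Esr2 and Nr5a2), 0 were lower and 6 did not pass, against 2.87% and 2.64% of all clusters, and the groups did not overlap for these 2, against 11.5%. With no adjustment, 4 of the 8 had a p under 0.05 here, 1 of them lower (Esr1), and 12224 of all 65956 clusters had such a p. The median change of the 8 members was 0.29, 0.21 and 0.18 in the 3 comparisons, and that of all clusters was 0.0031, -0.0329 and 0.0325. The comparisons share groups, so their counts are not independent, and the members were chosen with earlier results of these data known.

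**Figure D1:**
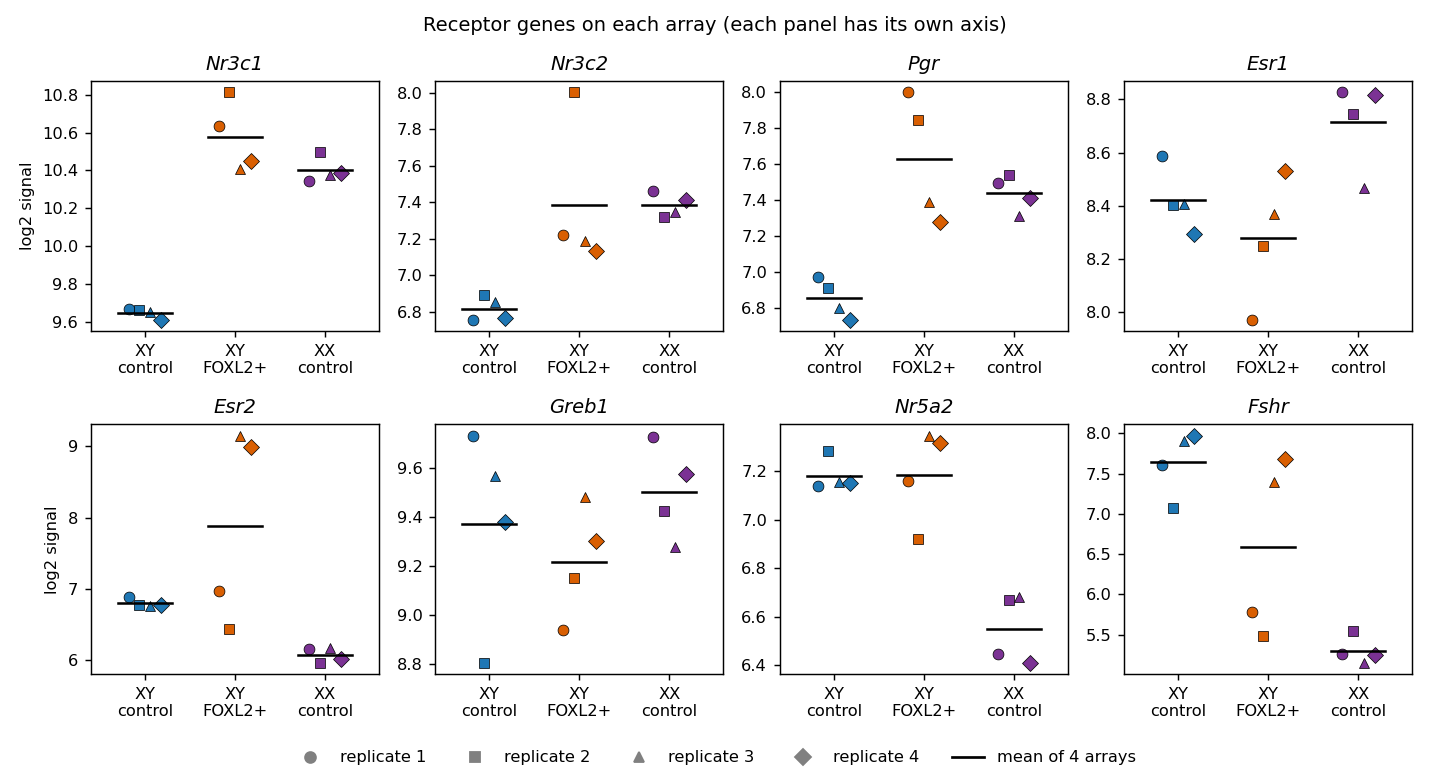
Deposited log2 signal of the 8 measured members on each of the 12 arrays, with 1 panel per gene, markers for single arrays and a line for the mean of 4 arrays. The XY FOXL2+ points of Nr3c1, Pgr and Nr3c2 lie above all XY control points, while those of Esr2 and Fshr fall into a low pair and a high pair.

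Nr3c1, the receptor for corticosterone, was the member with the smallest adjusted p against XY control. It read 9.67, 9.66, 9.65 and 9.61 in XY control, 10.63, 10.81, 10.41 and 10.45 in XY FOXL2+, and 10.34, 10.49, 10.38 and 10.38 in XX control. All 8 arrays of the latter groups lay above all 4 XY controls, and XY FOXL2+ overlapped XX control. The change in XY FOXL2+ was 0.93 (95% interval 0.72 to 1.14, 1.90-fold, SE 0.10, adjusted p = 6.13e-05), and that in XX control was 0.75 (0.55 to 0.96, 1.69-fold, adjusted p = 0.000126). XY FOXL2+ and XX control differed by 0.18 (-0.03 to 0.38, adjusted p = 0.362).

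Pgr, the receptor for progesterone, lay within the range of the silent genes in XY control (mean 6.86). It read 6.98, 6.91, 6.80 and 6.73 there, 8.0, 7.85, 7.39 and 7.28 in XY FOXL2+, and 7.50, 7.54, 7.31 and 7.41 in XX control. The XY FOXL2+ arrays were all above XY control, with replicates 1 and 2 also above every XX control. Pgr rose by 0.77 (0.46 to 1.08, 1.71-fold, SE 0.14, adjusted p = 0.0054) in XY FOXL2+ and by 0.59 (0.28 to 0.89, 1.5-fold, adjusted p = 0.0119) in XX control. The 2 groups differed from each other by 0.19 (-0.12 to 0.50, adjusted p = 0.544). Without XY FOXL2+ replicates 3 and 4, that difference was 0.48 (adjusted p = 0.0341).

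Nr3c2 binds aldosterone and corticosterone. It read 6.76, 6.89, 6.85 and 6.76 in XY control, 7.22, 8.0, 7.19 and 7.13 in XY FOXL2+, and 7.46, 7.32, 7.35 and 7.41 in XX control. Replicate 2 lay far above the other XY FOXL2+ arrays, which were below every XX control, and neither group overlapped XY control. The group mean was 6.82 ± 0.07 in XY control, within the range of the silent genes, 7.39 ± 0.41 in XY FOXL2+ and 7.38 ± 0.07 in XX control. The change was 0.57 in both comparisons with XY control (0.23 to 0.91, 1.48-fold, SE 0.16), with adjusted p = 0.0456 for XY FOXL2+ and 0.023 for XX control. Without XY FOXL2+ replicate 2 the XY FOXL2+ change was 0.36 (adjusted p = 0.0128). The call for XY FOXL2+ was lost without any single control array of XY control replicates 1 to 4 (adjusted p = 0.109, 0.0761, 0.0948 and 0.104) or of XX control (adjusted p 0.0629 to 0.0663), and with only the 2 groups compared in the fit (0.136). That for XX control was lost without XY control replicate 1 or 4 (0.0588 and 0.056) or XX control replicate 1 or 4 (0.0618 and 0.0561). Under 19 alternative ways of processing, the XY FOXL2+ change passed in 9 and the XX control change in 15. XY FOXL2+ and XX control differed by 0.00079 (-0.34 to 0.34, adjusted p = 0.999).

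Marker lists of other tissues were mixed beside these 3 receptors. The mean of the 7 surface epithelium markers, of which Wt1 and Lhx9 are also made by gonadal somatic cells, lay between 8.63 and 8.96 in XY control and between 9.97 and 10.10 in XX control, and read 9.87, 9.77, 9.07 and 9.02 in XY FOXL2+ replicates 1 to 4. Of the 7, 3 were higher in XY FOXL2+ than in XY control, Krt8 by 1.66 (adjusted p = 0.00259) among them, and 1 was lower, Lhx9 (-0.44, adjusted p = 0.0254). The mean of the mesonephric duct and tubule markers (8 of 10 measured) lay between 6.42 and 6.70 in XY control and between 7.30 and 7.57 in XX control, and read 7.20, 7.18, 6.56 and 6.68 in XY FOXL2+, with replicates 3 and 4 inside the XY control range. Of the 8, 1 was higher in XY FOXL2+ than in XY control, Calb1 (2.77, adjusted p = 0.00836), and 2 were lower, Lhx1 (-0.60, adjusted p = 0.0203) and Ret (-0.77, adjusted p = 0.0219). The Lhx1 means of 6.62 in XY control and 6.01 in XY FOXL2+ lay within the range of the silent genes. These marker genes are named after their values were seen. The means of both lists were higher in XY FOXL2+ replicates 1 and 2, as Pgr and Nr3c1 were. All 3 receptors lay above XY control in all 4 XY FOXL2+ arrays, as did the means of the surface epithelium and macrophage lists. The macrophage list (6 of 6) lay between 7.09 and 7.34 in XY control, 7.56 and 7.64 in XY FOXL2+, and 7.12 and 7.41 in XX control. The endothelial list (6 of 6) lay between 10.31 and 10.63, 10.61 and 10.88, and 10.23 and 10.47 in the same order. No marker was at 0 on this scale, and the part of these cells in the receptor results was not tested.

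**Figure D2:**
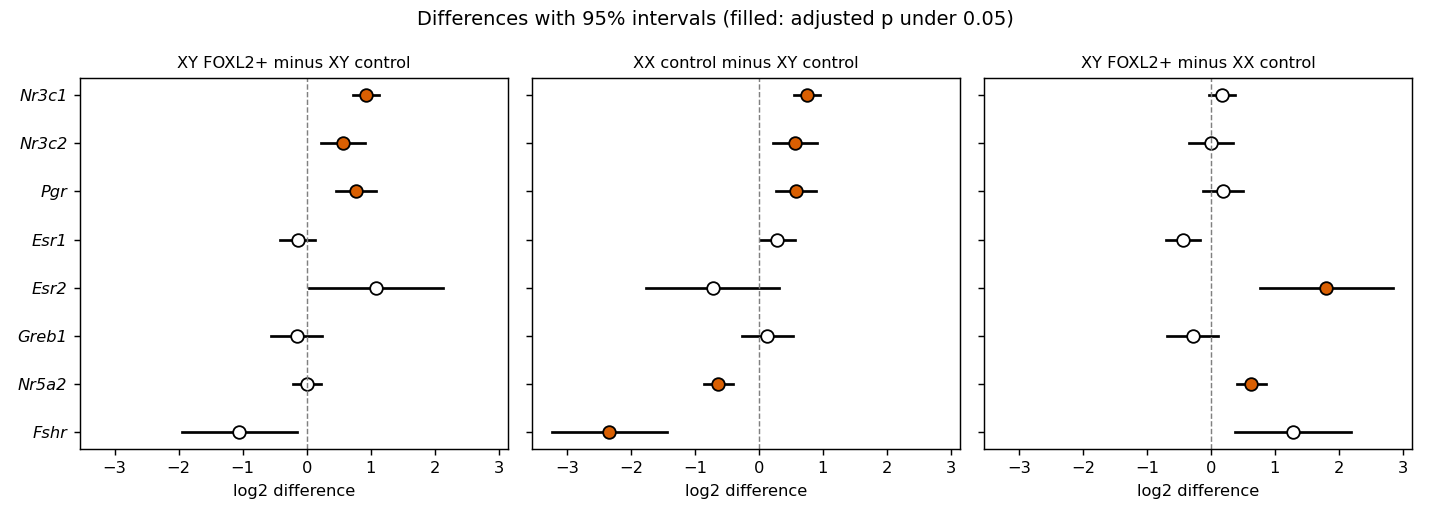
Log2 change of each measured member in the 3 comparisons, with points for the estimate and bars for the 95% interval; filled points passed an adjusted p of 0.05. Nr3c1, Pgr and Nr3c2 sit to the right of 0 in both comparisons with XY control, and Fshr spans the widest range, down to -2.34 in XX against XY control.

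Esr1 encodes estrogen receptor alpha and did not pass in any comparison. It read 8.59, 8.40, 8.41 and 8.30 in XY control, 7.97, 8.25, 8.37 and 8.53 in XY FOXL2+, and 8.83, 8.74, 8.47 and 8.82 in XX control. The groups overlapped in every pair, although 3 of the 4 XX controls were above all other arrays. The differences were -0.14 for XY FOXL2+ against XY control (-0.41 to 0.13, adjusted p = 0.591), 0.29 for XX against XY control (0.02 to 0.56, adjusted p = 0.148) and -0.43 for XY FOXL2+ against XX control (-0.70 to -0.16, adjusted p = 0.0659). After quantile normalization the latter 2 passed (adjusted p = 0.0318 and 0.0446). The difference between XY FOXL2+ and XX control also passed without XY FOXL2+ replicate 4 (0.0486), without replicates 3 and 4 (-0.60, adjusted p = 0.0376) and over brighter clusters alone (0.0429).

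Esr2, estrogen receptor beta, had the widest spread of the members within XY FOXL2+. It read 6.89, 6.78, 6.76 and 6.78 in XY control, 6.97, 6.44, 9.15 and 8.99 in XY FOXL2+, and 6.16, 5.96, 6.17 and 6.03 in XX control. XY FOXL2+ replicates 3 and 4 were more than 2 units above every control, replicate 1 was just above the XY controls and replicate 2 lay between the controls. The means of both control groups lay within the range of the silent genes. The SD was 0.06 in XY control, 1.39 in XY FOXL2+ and 0.10 in XX control, and 99.8% of all clusters had a smaller SD within XY FOXL2+. Against XX control Esr2 was higher by 1.81 (0.77 to 2.85, 3.50-fold, SE 0.48, adjusted p = 0.0467), with no overlap. Against XY control the difference was 1.08 (0.04 to 2.12, SE 0.48, adjusted p = 0.229; exact permutation p = 0.314).

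Both Esr2 results turned on single arrays. The difference from XX control lost its call without XY FOXL2+ replicate 3 or 4 (adjusted p = 0.113 and 0.131), without any single XX control (0.0909, 0.118, 0.101 and 0.108 for replicates 1 to 4) or XY control (0.0661, 0.0647, 0.0678 and 0.0655), and with only the 2 groups in the fit (0.133). Without both replicates 3 and 4 it was 0.62 (adjusted p = 0.0324). The difference from XY control passed without XY FOXL2+ replicate 2 (1.57, adjusted p = 0.0363) and with limma's array weights (1.64, adjusted p = 0.0206), and without both replicates 3 and 4 it was -0.10 (adjusted p = 0.711). Esr2 in XX against XY control differed by -0.72 (-1.76 to 0.32, adjusted p = 0.384) in the fit over all arrays, although the 2 control groups did not overlap (exact permutation p = 0.0286, the smallest possible). With only these 2 groups in the fit, adjusted p was 4.34e-05, and it was 0.000598 without XY FOXL2+ replicates 3 and 4.

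Greb1, a coregulator that estrogen receptor alpha induces in breast cells, did not differ beyond its spread. It read 9.73, 8.80, 9.57 and 9.38 in XY control, 8.94, 9.15, 9.48 and 9.30 in XY FOXL2+, and 9.73, 9.42, 9.28 and 9.57 in XX control. All 4 XY FOXL2+ values lay within the range of the 8 controls. The differences were -0.15 (-0.55 to 0.25, adjusted p = 0.715), 0.13 (-0.27 to 0.53, adjusted p = 0.734) and -0.28 (-0.68 to 0.12, adjusted p = 0.465) for XY FOXL2+ against XY control, XX against XY control and XY FOXL2+ against XX control.

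Nr5a2, also called LRH-1, is an orphan receptor that binds the same DNA letters as its relative Nr5a1 (SF1). It read 7.14, 7.28, 7.16 and 7.15 in XY control, 7.16, 6.92, 7.35 and 7.32 in XY FOXL2+, and 6.45, 6.67, 6.68 and 6.41 in XX control. XY FOXL2+ overlapped XY control, and both lay above all XX controls. The XX control mean of 6.55 lay within the range of the silent genes. Nr5a2 was lower in XX than in XY control by 0.63 (adjusted p = 0.00085, 1.55-fold) and higher in XY FOXL2+ than in XX control by 0.63 (0.41 to 0.86, 1.55-fold, SE 0.10, adjusted p = 0.00366). XY FOXL2+ and XY control differed by 0.0035 (-0.22 to 0.23, adjusted p = 0.992).

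Fshr, the receptor for follicle-stimulating hormone, showed the largest change of the measured members. It read 7.60, 7.07, 7.91 and 7.97 in XY control, 5.78, 5.48, 7.39 and 7.68 in XY FOXL2+, and 5.26, 5.55, 5.15 and 5.25 in XX control. XY FOXL2+ replicates 3 and 4 fell inside the XY range, replicate 2 inside the XX range, and replicate 1 just above it. The means were 7.64 ± 0.41, 6.58 ± 1.11 and 5.30 ± 0.17 in the same order of groups, and the XX mean was below the level at which silent genes read. Fshr was lower in XX than in XY control (-2.34, interval -3.24 to -1.44, 5.06-fold, SE 0.42, adjusted p = 0.00148), with no overlap. XY FOXL2+ differed from XY control by -1.05 (-1.95 to -0.155, adjusted p = 0.170; exact permutation p = 0.2) and from XX control by 1.28 (0.38 to 2.18, adjusted p = 0.103; exact permutation p = 0.0571).

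The Fshr differences of the XY FOXL2+ group passed or failed with its arrays. Without XY FOXL2+ replicate 4 the difference from XY control was -1.42 (adjusted p = 0.0393), and without replicates 3 and 4 it was -2.01 (adjusted p = 0.000143). XY FOXL2+ replicates 1 and 2, which that last fit kept, read 5.78 and 5.48. Both values lie under the lowest silent gene mean of 5.99, so that difference may be understated. The difference from XX control passed without replicate 1 or 2 (adjusted p = 0.0477 and 0.0155) and with array weights (1.74, adjusted p = 0.00496), and was 0.33 (adjusted p = 0.505) without replicates 3 and 4.

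Replicates 3 and 4 of XY FOXL2+, high for both Esr2 and Fshr, were also the arrays with more Sertoli and Leydig cell marker signal. The fetal Leydig cell markers (4 of 5 measured) averaged 8.66, 7.91, 11.09 and 11.17 in replicates 1 to 4, between 15.78 and 16.17 in XY control and between 7.83 and 8.07 in XX control. The 9 fetal granulosa cell markers, Foxl2 among them, averaged 9.17, 9.87, 8.17 and 8.11, between 7.52 and 7.58 in XY control and between 10.19 and 10.52 in XX control. For Fshr and for both testis cell lists, replicates 3 and 4 were the XY FOXL2+ arrays nearest to XY control. Esr2 in those replicates exceeded every XY control. Foxl2 was lowest in the same replicates, at 7.18 and 6.72 against 7.67 and 8.62 in replicates 1 and 2. The interstitial progenitor markers (5 of 7 measured) averaged 11.35, 10.996, 11.77 and 11.80 in replicates 1 to 4. That list lay between 12.07 and 12.31 in XY control and between 10.58 and 10.93 in XX control. The part of Foxl2 level or cell makeup in the Esr2 and Fshr results was not tested.

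**Figure D3:**
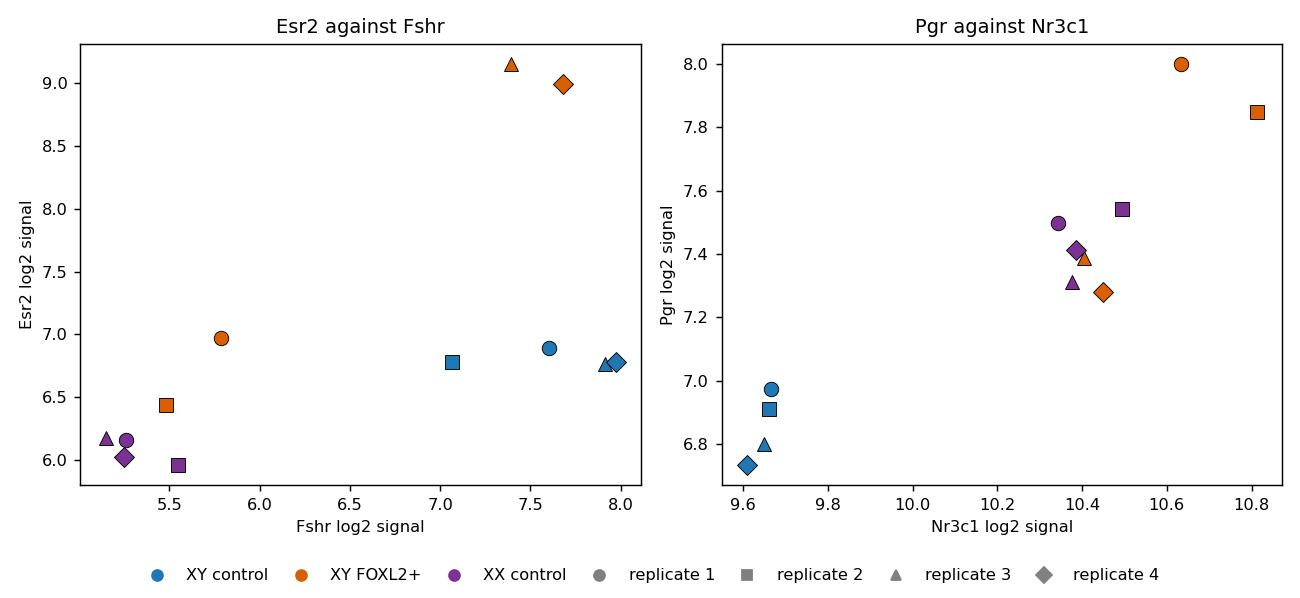
Log2 signal of Esr2 against Fshr (left) and of Pgr against Nr3c1 (right), with 1 marker per array, colour for the group and shape for the replicate number. XY FOXL2+ replicates 3 and 4 lie at Esr2 values of 9.15 and 8.99, apart from all other arrays. On the right XY FOXL2+ replicates 1 and 2 lie at the top. Replicate 3 lies among the XX controls, and replicate 4 lies just below them for Pgr.

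The genes whose signal followed each member most closely over the 12 arrays are given as a description, since the arrays share 3 groups. Esr2 was followed by Cnmd (Pearson r = 0.988), which encodes the cartilage protein chondromodulin, by the BMP-binding protein Bmper (0.983) and by the endopeptidase Phex (0.982). Cnmd read 8.08, 6.27, 11.83 and 12.07 in XY FOXL2+ against means of 7.21 in XY control and 6.18 in XX control, the same split as Esr2. Fshr was followed by Sgpp2 (0.985), a sphingosine phosphate phosphatase, Hspa12b (0.982) and Arhgap20 (0.979). Pgr was followed by Ctnnal1 (0.973), the microfibril protein Fbn2 (0.968) and the imprinted gene Peg10 (0.967). Nr3c1 was followed by the mesenchymal homeobox gene Prrx1 (0.972), Tbc1d12 (0.970) and Rtl4 (0.969). Nr3c2 was followed by Dok6 (0.975), Arid3c (0.968) and Gpcpd1 (0.963), and Nr5a2 by Ahsg, Sncaip and Aspm (0.962 each).

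Among other nuclear receptors tied to gonadal steroid production, 8 of 10 listed genes were measured. Against XY control, 1 rose in XY FOXL2+ and 4 fell (median change of the list -0.35). Nr5a1, the master regulator of steroidogenic genes, fell by 1.68 (adjusted p = 6.4e-08) and also fell by 1.24 in XX control (adjusted p = 5.27e-07). It was the 1 listed receptor lower in XY FOXL2+ than in XX control (-0.44, adjusted p = 0.00532). Nr4a1, an immediate early orphan receptor, fell by 1.66 in XY FOXL2+ (adjusted p = 7.3e-06) and by 1.67 in XX control (adjusted p = 3.85e-06), and the corepressor Nr0b2 (SHP) fell by 0.75 (adjusted p = 0.000256) and 0.77 (adjusted p = 7.12e-05).

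The COUP-TF receptors Nr2f1 and Nr2f2 were both higher in XY FOXL2+ than in XX control. Nr2f2, a marker of interstitial cells, fell by 1.68 in XX control (adjusted p = 2.39e-05) and was 1.07 higher in XY FOXL2+ (adjusted p = 0.00302). Its change of -0.61 against XY control (adjusted p = 0.0484) lost its call without any 1 of 10 arrays. The call also ended after quantile normalization (adjusted p = 0.0742), with only the 2 groups in the fit (0.132) and with array weights (0.109). Without XY FOXL2+ replicates 3 and 4 the change was -0.94 (adjusted p = 0.000664). Nr2f1 was 0.58 higher (adjusted p = 0.0123; 0.117 without XY FOXL2+ replicates 3 and 4). It was also the 1 receptor of the list that rose against XY control (0.47, adjusted p = 0.0272), a call that 4 single arrays could end. That call also ended with only the 2 groups in the fit (adjusted p = 0.093) and without XY FOXL2+ replicates 3 and 4 (0.32, adjusted p = 0.139). Nr2f1 and Nr0b1 below are named for these changes after their values were seen. Nr0b1 (DAX1) was 0.73 higher in XX than in XY control (adjusted p = 0.0479), a call that ended without any 1 of 6 arrays. In that comparison 1 receptor was higher and 4 were lower (median -0.44), and in XY FOXL2+ against XX control 2 were higher and 1 lower (median 0.02).

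Most of the listed genes that make or convert steroids, or supply cholesterol for them, fell. Of 10 measured (12 listed), 8 fell in XY FOXL2+ against XY control (median -3.63) and 9 fell in XX control (median -4.29), and in each case 0 rose. With no adjustment 8 and 9 had a p under 0.05, all lower, against 13140 and 18220 of all 65956 clusters in either direction. The largest falls in XY FOXL2+ were in Cyp11a1, which starts steroid synthesis by cleaving cholesterol (-8.15, adjusted p = 3.65e-05), Cyp17a1, which leads to androgens (-6.90, adjusted p = 0.000523), Star, which brings cholesterol into mitochondria (-6.38, adjusted p = 1.3e-09), and Hsd17b3, which makes testosterone (-5.36, adjusted p = 0.000214). In XX control the largest changes were those of Cyp11a1 (-10.73, adjusted p = 2.19e-06), Cyp17a1 (-9.52, adjusted p = 1.73e-05), Hsd17b3 (-8.23, adjusted p = 3.3e-06) and Star (-7.06, adjusted p = 1.62e-10). Several of these genes are also the Leydig and Sertoli markers used above, so they carry no separate evidence on cell makeup.

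Enzymes that bear on corticoid receptors moved too. Hsd11b2, which inactivates corticosterone and so guards NR3C2, read 10.56, 10.67, 10.26 and 10.15 in XY control, 8.61, 7.72, 8.63 and 8.53 in XY FOXL2+, and 7.61, 7.27, 7.08 and 7.44 in XX control. The 3 groups did not overlap. It fell by 2.04 in XY FOXL2+ (adjusted p = 4.14e-05) and fell by 3.06 in XX control (adjusted p = 8.42e-07), and XY FOXL2+ was 1.02 above XX control (adjusted p = 0.0105). Without XY FOXL2+ replicates 3 and 4 that last adjusted p was 0.11. Hsd11b1, which regenerates corticosterone, differed by 0.12 in XY FOXL2+ against XY control (adjusted p = 0.35). Cyp11b1, which makes corticosterone, fell by 3.72 in XY FOXL2+ (adjusted p = 5.28e-09) and Cyp21a1, which acts before it, fell by 0.92 (adjusted p = 1.34e-05). The list of 5 adrenal cortex markers, which holds both genes, lay between 7.44 and 7.53 in XY control, 5.89 and 6.29 in XY FOXL2+, and 5.85 and 5.92 in XX control, and its part in these falls was not tested.

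Hsd17b1, which makes estradiol from estrone, split the XY FOXL2+ arrays as Esr2 and Fshr did. It read 10.50, 9.39, 10.56 and 10.76 in XY control, 8.0, 6.44, 11.42 and 11.33 in XY FOXL2+, and 6.30, 6.30, 6.58 and 6.64 in XX control. Replicates 3 and 4 were above every XY control and replicate 2 was at the XX level. The difference from XY control was -1.0 (adjusted p = 0.594), and XX control was lower than XY control by 3.85 (adjusted p = 0.00811). In XY FOXL2+ against XX control, 3 genes of this list were higher (median of the list 1.11) and 0 lower. They were Hsd17b3 (2.87, adjusted p = 0.02), Hsd11b2 and Star (0.67, adjusted p = 0.0489). With no adjustment, 8 of the 10 had a p under 0.05, 0 of them lower, against 12224 of all 65956 clusters in either direction. The calls of Star and Hsd17b3 ended without single arrays, up to adjusted p = 0.143 and 0.0623. Without XY FOXL2+ replicates 3 and 4, Star was 0.36 (adjusted p = 0.321) and Hsd17b3 was 1.44 (adjusted p = 0.0857) above XX control.

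**Figure D4:**
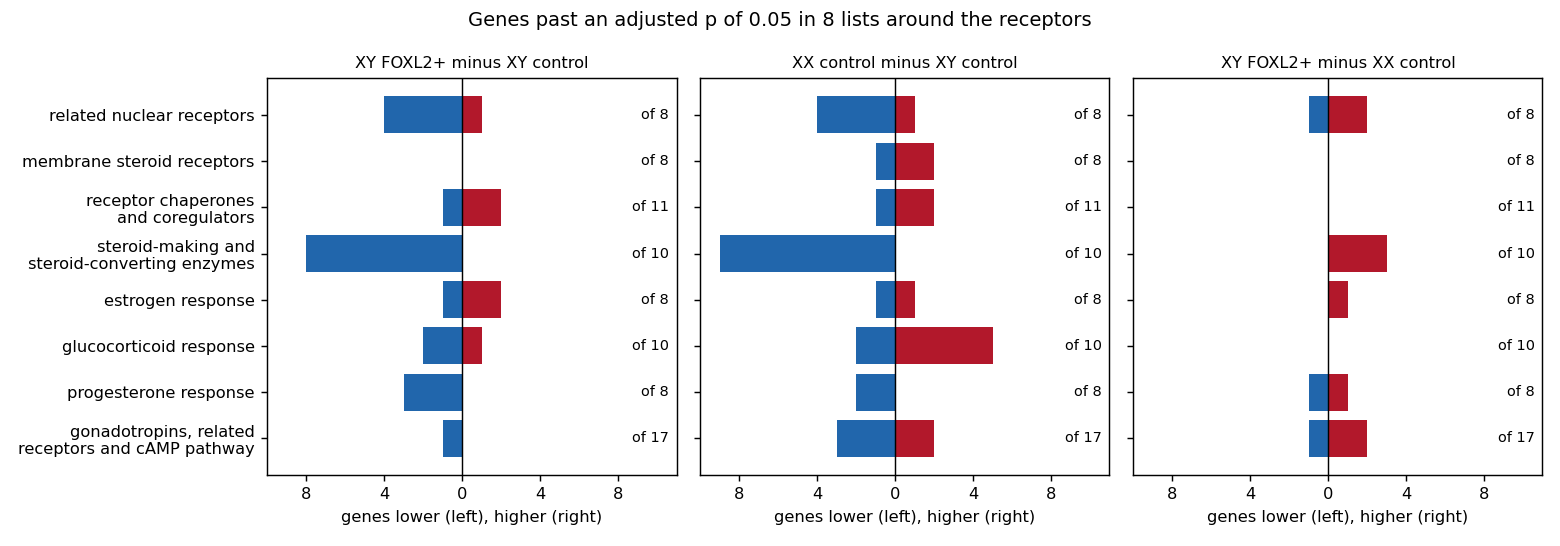
Number of genes past an adjusted p of 0.05 in each of 8 lists for the 3 comparisons, with lower genes to the left, higher genes to the right and the number measured at the edge. The enzyme list has the longest bars, 8 of 10 lower in XY FOXL2+ and 9 of 10 lower in XX control, both against XY control.

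Of the chaperones and coregulators that act with these receptors, 11 of 14 were measured. In XY FOXL2+ 2 rose and 1 fell against XY control (median -0.06), and in XX control 2 rose and 1 fell (median 0.06). The coactivator Ncoa3 rose by 0.71 in XY FOXL2+ (adjusted p = 0.0134; 0.0601 with only these 2 groups in the fit) and by 1.07 in XX control (adjusted p = 0.000317). Nrip1, a corepressor needed for ovulation, rose by 0.46 (adjusted p = 0.0054) and by 0.68 (adjusted p = 0.000102). Stip1, an HSP90 cochaperone, fell by 0.46 in XY FOXL2+ (adjusted p = 0.0227), and the acetyltransferase Crebbp fell by 0.36 in XX control (adjusted p = 0.0233); both calls ended without some single arrays, and after quantile normalization the Crebbp change was -0.22 (adjusted p = 0.18) and the Stip1 change -0.39 (adjusted p = 0.0526). In limma, 0 of the 11 passed between XY FOXL2+ and XX control, where 4 had an unadjusted p under 0.05 (median -0.14), as had 12224 of all 65956 clusters.

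Membrane receptors for progestins and estrogen (8 of 8 measured) gave 0 calls in limma for XY FOXL2+ against XY control, with 3 at an unadjusted p under 0.05 (median -0.02). There were 0 calls against XX control either, also with 3 at an unadjusted p under 0.05 (median -0.06). Of all 65956 clusters, 13140 and 12224 had such a p in these 2 comparisons. In XX against XY control 2 rose and 1 fell (median 0.05). Pgrmc1, a heme-binding membrane protein, fell by 0.50 (adjusted p = 0.00524), while Paqr9 (0.58, adjusted p = 0.0206) and Paqr5 (0.19, adjusted p = 0.0433) were higher. The Paqr9 call ended without any 1 of 3 arrays. The Paqr5 call ended without any 1 of 10 of the 12 arrays and with only the 2 groups in the fit (adjusted p = 0.0642), and its means of 5.04 in XY control and 5.22 in XX control lay below those of all the silent genes given above.

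Genes that glucocorticoid induces in other tissues (10 of 10 measured) moved in both directions. In XY FOXL2+ 1 rose and 2 fell against XY control (median 0.24), and in XX control 5 rose and 2 fell (median 0.50). With no adjustment, 6 of the 10 had a p under 0.05 in XY FOXL2+ against XY control, 2 of them lower. Of all 65956 clusters, 13140 had such a p in that comparison. Tsc22d3 (GILZ), an anti-inflammatory target of NR3C1, read 7.44, 7.55, 7.55 and 7.59 in XY control, 7.82, 8.29, 8.18 and 8.21 in XY FOXL2+, and 8.36, 8.41, 8.30 and 8.28 in XX control. All XY FOXL2+ arrays lay above XY control, and the rise was 0.59 (adjusted p = 0.0027). The kinase gene Sgk1, a target of both corticoid receptors, fell by 0.57 (adjusted p = 0.0062) and the clock gene Per1 fell by 0.55 (adjusted p = 0.0161; 0.069 with only these 2 groups in the fit). In XX control the largest rises were in the metallothionein Mt2 (2.69, adjusted p = 0.0399), the cell cycle inhibitor Cdkn1c (1.92, adjusted p = 0.00205), Mt1 (1.89, adjusted p = 0.0181) and Klf9 (0.92, adjusted p = 0.00457). The Mt1 and Mt2 calls ended without some single arrays. XY FOXL2+ replicates 1 to 4 read 15.27, 15.08, 11.96 and 11.29 for Mt2, and 13.14, 13.16, 11.49 and 11.46 for Cdkn1c. They read 14.77, 13.90, 12.44 and 12.06 for Mt1, and 7.59, 7.16, 6.79 and 6.58 for Klf9. These genes did not pass in XY FOXL2+ against XY control. In limma 0 of the 10 passed between XY FOXL2+ and XX control, where 2 had an unadjusted p under 0.05 (median -0.16), as had 12224 of all 65956 clusters.

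Of the estrogen response list (8 of 10 measured), 2 rose and 1 fell in XY FOXL2+ against XY control (median 0.21). The chemokine Cxcl12, which guides germ cells, read 11.93, 11.56, 11.998 and 11.60 in XY control, 9.25, 8.62, 10.86 and 10.98 in XY FOXL2+, and 7.98, 8.04, 7.35 and 8.07 in XX control, with no overlap between groups. It fell by 1.84 in XY FOXL2+ (adjusted p = 0.0204) and by 3.91 in XX control (adjusted p = 4.43e-05), and was 2.07 higher in XY FOXL2+ than in XX control (adjusted p = 0.0145), where it was the 1 gene of the list to pass (median 0.17) and, with no adjustment, also the 1 gene with a p under 0.05. Of all 65956 clusters, 12224 had such a p in that comparison. The calls against XY control in XY FOXL2+ and against XX control were lost with only the groups compared in the fit (adjusted p = 0.0709 and 0.0605), the former also without XY control replicate 1 or 3 and the latter without XX control replicate 3 (adjusted p up to 0.0626 and 0.0526). Without XY FOXL2+ replicates 3 and 4 they were -2.83 (adjusted p = 1.94e-05) and 1.08 (adjusted p = 0.0348). Greb1l, the paralog of Greb1, rose by 0.55 in XY FOXL2+ (adjusted p = 0.0141; 0.0684 with only these 2 groups and 0.0617 without XY FOXL2+ replicates 3 and 4) and by 0.38 in XX control (adjusted p = 0.0481; lost without any 1 of 9 arrays). Igfbp4, an IGF-binding protein, rose by 0.39 in XY FOXL2+ (adjusted p = 0.0314; lost without any 1 of 7 arrays). In XX against XY control 1 rose and 1 fell (median -0.12).

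Of the progesterone response list (8 of 8 measured), 3 fell in XY FOXL2+ against XY control and 0 rose (median -0.18), with 4 at an unadjusted p under 0.05, all lower (13140 of all 65956 clusters had such a p). Besides Hsd11b2 these were the transcription coregulator Cited2 (-1.33, adjusted p = 0.0317; lost without any 1 of 4 arrays) and Adamts1, a protease of the ovulating follicle (-0.55, adjusted p = 0.00934). In XX against XY control Hsd11b2 and Snap25, a secretion protein (-0.33, adjusted p = 0.00966), fell and 0 rose (median -0.12), with 3 at an unadjusted p under 0.05, 2 of them lower (18220 of all 65956 clusters had such a p). Between XY FOXL2+ and XX control Hsd11b2 was higher and Adamts1 lower (-0.44, adjusted p = 0.0385; lost without any 1 of 8 arrays), with a median of -0.06.

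Of the gonadotropins, related receptors and cAMP pathway (17 of 19 measured), 1 fell and 0 rose in XY FOXL2+ against XY control (median 0.01), with 5 at an unadjusted p under 0.05, 3 of them lower (13140 of all 65956 clusters had such a p). That gene was Prkar2b, a regulatory subunit of the cAMP-dependent kinase, at 14.50, 14.34, 14.66 and 14.38 in XY control, 12.86, 11.98, 13.19 and 13.14 in XY FOXL2+, and 11.81, 11.77, 11.87 and 11.62 in XX control. The 3 groups did not overlap. It fell by 1.68 (adjusted p = 0.000324) in XY FOXL2+ and fell by 2.70 (adjusted p = 3.38e-06) in XX control, and was 1.03 higher in XY FOXL2+ than in XX control (adjusted p = 0.0132; 0.0566 with only these 2 groups in the fit). Without XY FOXL2+ replicates 3 and 4 that difference was 0.66 (adjusted p = 0.119). In XX against XY control 2 rose and 3 fell (median -0.06). Among these were the thyrotropin receptor Tshr, a relative of Fshr (1.01, adjusted p = 0.0186; 0.0507 without XY control replicate 1), the adenylyl cyclase Adcy3 (0.69, adjusted p = 0.000154) and the receptor-desensitizing arrestin Arrb1 (-0.56, adjusted p = 0.00731). Gnas, the stimulatory G protein of the pathway and the fifth gene called (-0.46, adjusted p = 0.00292), is named after its value was seen. XY FOXL2+ was higher than XX control for Arrb1 (0.72, adjusted p = 0.00546) and lower for Adcy3 (-0.45, adjusted p = 0.0108; 0.0543 with only these 2 groups and 0.093 without XY FOXL2+ replicates 3 and 4), and the list median was -0.0018.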

How the data were processed

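Values were the log2 signals of the deposited table, 1 per transcript cluster and array. Per the labels' protocols, 100 ng of RNA was amplified and labelled with the WT Plus kit. The labels and file headers do not state the base of the logarithm (taken as log2), the summarization, the normalization by the authors or the genome build. The table has 72688 entries. The 6732 control sets were left out and no filter on low signal was set. Symbols came from the platform annotation, and 1138 older ones were updated through RefSeq: 31258 clusters have 1 symbol, 1492 several, and 33206 are not listed there. A gene with several clusters is represented by the one with the highest mean.

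Groups followed the sample titles. The 12 arrays went into 1 limma 3.58.1 fit in R 4.3.3 (lmFit, eBayes with trend, 9 residual degrees of freedom, two-sided), first tested on simulated data. The labels name no litter or batch, and the number of arrays limits the precision. The members and lists were chosen with earlier results of these data known. Beside the members, the text names up to 4 passing genes of largest change per list and comparison, enzymes or partners set beside a receptor, and the 3 genes of highest Pearson r with each member that passed. The alternatives were quantile normalization, array weights, brighter clusters alone, 2-group fits, a replicate block and leaving out each array. Leaving out XY FOXL2+ replicates 3 and 4 together was added after seeing the data.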

Additional observations from a re-analysis of the deposited data

Results flagged for a closer look

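In 24 groups of 4 arrays (8 members in 3 groups), the gap of the highest or lowest array to its neighbour was divided by the range of the group and set against Dixon's 95% critical value for 4 values. Chance marks about 1 group in 20, and 3 groups were marked. Nr3c2 in XY FOXL2+ had a ratio of 0.899, with replicate 2 at 8.0 and the other arrays between 7.13 and 7.22. Nr5a2 in XY control had a ratio of 0.878, with replicate 2 at 7.28 and the others between 7.14 and 7.16. Esr2 in XY control had a ratio of 0.841, with replicate 1 at 6.89 and the others between 6.76 and 6.78. The Esr2 and Fshr values of XY FOXL2+, which fell into pairs, were not marked by this measure.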

How the results depend on the processing

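The 24 member changes were recomputed under 19 alternatives each, 456 values in all. Of these, 403 kept their direction and side of the threshold, 25 lost a call, 15 gained one and 13 changed sign. The Nr3c1 and Pgr rises against XY control in both groups, the Nr5a2 and Fshr falls in XX control and the Nr5a2 difference between XY FOXL2+ and XX control passed under all 19. The values that changed sign had not passed: Nr5a2 in XY FOXL2+ against XY control (-0.14 without XY FOXL2+ replicates 3 and 4, and -0.0503 to 0.0918 without single arrays), Nr3c2 in XY FOXL2+ against XX control (-0.0193 after quantile normalization, -0.0798 with array weights, -0.20 to 0.0848 without single arrays), Greb1 in XX against XY control (-0.0588 to 0.25 without single arrays) and Esr2 in XY FOXL2+ against XY control (-0.10 without replicates 3 and 4). Clusters called in XY FOXL2+ against XY control numbered 4698, and 2700 with the 2 groups alone, 8318 without replicates 3 and 4, and 3124 (without XY control replicate 3) to 5392 without single arrays. For XY FOXL2+ against XX control they numbered 3635, and 1916, 1855 and 2012 to 5992 in the same order, and 6752 with array weights; the single arrays that moved this count by over 1.5 times were XY FOXL2+ replicate 2 (5992), replicate 3 (2255) and replicate 4 (2012) and XX control replicates 2 to 4 (2041, 2068 and 2215). Members called in that comparison fell from 2 to 1 with the 2 groups alone and were 4 without replicates 3 and 4, and 1 to 3 without single arrays. Quantile normalization moved the share of higher calls from 34.5% to 45.1% in XY FOXL2+ against XY control and from 41.3% to 53.2% in XX against XY control. Of 25, 35 and 11 calls among the listed related genes in the 3 comparisons, no alternative ended 16, 27 and 3. Using a gene's other clusters gave no value, since no member has a second. Same-numbered arrays correlated between -0.0906 and 0.179 in their deviations from the group means, so the numbers do not pair the samples. With the replicate number as a block, 4356, 10905 and 3207 clusters were called, and the Nr3c2 change in XY FOXL2+ against XY control had an adjusted p of 0.0541. Low signals limit Fshr in XX control, Paqr5, Snap25 and Hsd11b1 in all groups, and Cyp11b1, Cyp21a1 and Nr0b2 in XY FOXL2+ and XX control. They also limit Tshr and Paqr9 in XY control and XY FOXL2+, and Foxl2 and Calb1 in XY control. The means of these genes in these groups lie under those of silent genes. Fshr in XY FOXL2+ replicates 1 and 2 also read under them.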
